A study of Mus musculus with 8 samples.

Results

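The 40 genes described here encode proteins that copy DNA or divide the chromosomes, and they were followed by symbol through a table of 55414 mouse gene identifiers. All 40 were found, and all 40 were among the 14458 genes abundant enough to be tested. Of these, 17 were S-phase members, which act in origin licensing, at the replication fork, in nucleotide supply or in S-phase entry, and 23 were mitotic members, which act from chromosome condensation to cytokinesis.

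The study implanted a PyMt cell line, derived from a single mammary tumor of an MMTV-PyMt mouse, into the inguinal mammary fat pad of wild-type female C57BL/6 mice 6 to 8 weeks of age. EtOH, the solvent, was the treatment of 4 mice, and 4 mice received 20 nmol calcipotriol, a vitamin D analog, on the skin over the tumor at intervals of 2 days from day 2 after implantation. Each library came from 1 whole tumor taken 24 h after the final application, so all 8 tumors carried the PyMt oncogene and had the same host genotype. The labels number the EtOH tumors 1 to 4 and the calcipotriol tumors 1, 5, 6 and 7.

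A dividing cell turns these genes on in order. E2F transcription factors release the genes for licensing and replication as cells enter S phase, and a complex of MuvB with B-MYB and then FOXM1 turns on the mitotic genes later, often through a cell-cycle homology region (CHR) beside CCAAT boxes. Because resting cells hold these transcripts at low levels, their amount in a tumor is widely read as a measure of proliferation, with Mki67 the usual histological marker.

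The promoters of the members were searched for the letters of both classes. In RefSeq windows of 300 bases (250 before and 50 after the transcription start, GRCm38.p6), 33 members had an entry, giving 15 promoters of 14 S-phase genes and 19 of mitotic genes. E2F-type letters (TTCCCGC or the variant TTCGCGC, the variant TTGGCGC or the variant TTGCCGC, on either strand) were present in 10 of 15 S-phase promoters (66.7%) and 3 of 19 mitotic promoters (15.8%), against 9.57% of 32851 promoters in all. CHR-type letters (TTTGAA or the variant TTCGAA, on either strand) were present in 2 of 15 S-phase promoters (13.3%) and 15 of 19 mitotic promoters (78.9%), against 19.2% of all promoters. CCAAT on either strand, whose first letters can be shared with an E2F-type match, was present in 66.7% of S-phase promoters, 89.5% of mitotic promoters and 37.4% of all promoters. Both CHR-type letters and CCAAT were found in 15 of the 19 mitotic promoters, 2 of the 15 S-phase promoters and 7.52% of all promoters.

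The stretches printed here belong to members with some of the most negative log2 fold changes of their subset, and hold E2F-type or CHR-type letters before the start. Cdt1 and Bub1 are left out because their E2F-type and CHR-type letters lie after the start (from bases 19 and 34, and from base 15). Each stretch runs from 180 bases before the start to its last match ahead of the start, on the gene's own strand, with matched letters in capitals. Mcm5 (chr8:75109329-75109491, plus strand) and Mcm6 (chr1:128359715-128359885, minus strand) carry E2F-type and CCAAT letters.
Mcm5: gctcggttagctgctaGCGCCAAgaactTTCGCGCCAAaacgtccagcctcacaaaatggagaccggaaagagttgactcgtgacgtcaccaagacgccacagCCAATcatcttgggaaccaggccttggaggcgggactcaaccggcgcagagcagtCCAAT
Mcm6: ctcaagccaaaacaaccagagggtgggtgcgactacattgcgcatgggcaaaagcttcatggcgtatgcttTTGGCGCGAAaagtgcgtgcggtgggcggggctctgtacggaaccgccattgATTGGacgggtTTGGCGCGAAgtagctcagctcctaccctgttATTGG
Ube2c (chr2:164769749-164769905, plus strand), Cdc20 (chr4:118437347-118437523, minus strand) and Ccnb2 (chr9:70421571-70421734, minus strand) carry CHR-type and CCAAT letters and no E2F-type match.
Ube2c: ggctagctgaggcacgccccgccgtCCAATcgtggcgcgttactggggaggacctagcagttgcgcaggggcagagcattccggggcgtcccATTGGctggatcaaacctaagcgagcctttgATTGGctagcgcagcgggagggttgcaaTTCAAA
Cdc20: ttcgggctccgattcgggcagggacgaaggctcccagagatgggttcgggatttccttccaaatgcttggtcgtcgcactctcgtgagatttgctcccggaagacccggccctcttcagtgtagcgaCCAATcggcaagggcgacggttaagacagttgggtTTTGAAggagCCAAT
Ccnb2: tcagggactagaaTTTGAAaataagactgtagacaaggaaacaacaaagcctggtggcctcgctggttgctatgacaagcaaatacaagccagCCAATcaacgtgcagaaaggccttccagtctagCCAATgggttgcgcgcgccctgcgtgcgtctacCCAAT
In the Mcm6 stretch the E2F-type letters form a pair of overlapping matches on opposite strands, starting 109 and 106 bases before the start, and a further such pair starting at 46 and 43. The CHR-type letters of Ube2c and Cdc20 start 29 and 18 bases before the start, close to it, and Ccnb2 has such letters 167 bases before it and again from base 5 after it, which are not shown. A match of letters is a description of sequence and does not show binding.

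Library totals ran from 19685397 to 25084715 counts, and each member had between 54 and 9085 counts in each tumor. No pair of libraries within a group agreed within counting noise: the chi-square per gene was at least 19.6 (EtOH 3 and 4). It was 40.04 for EtOH 1 and 2, and 77.5 to 100.2 between either of these and EtOH 3 or 4. The members' median absolute log2 difference was 0.107 for EtOH 3 and 4, 0.19 for EtOH 1 and 2, and 0.566 to 0.597 between them. Among calcipotriol tumors the chi-square ran from 39.7 (6 and 7) to 120.5 (1 and 5). The tests took the tumors of a group as independent, and whether the EtOH tumors fall into pairs was not tested. Of the markers of the labelled epithelial cells, Krt8 and Krt18 were abundant in all 8 tumors, whereas Epcam, Krt7, Krt19, Cldn4 and Esrp1 had 0 counts in EtOH 1 and 2, which allows up to 0.143 and 0.137 CPM (each count taken relative to its library size). The tumors also contained other cells, and in such bulk RNA fewer cycling cells and less RNA per cell cannot be told apart.

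Of the 40 members, 36 had a lower mean in calcipotriol-treated tumors. No member passed both an adjusted p of 0.05 and a log2 fold change of 1, whereas 1.07% of all tested genes did so in the higher direction and 0.948% in the lower direction. With the adjusted p alone, 2 members fell, Cdt1 and Ube2c (5% of 40, against 1.37% of all genes), and 0 rose (1.37% of all genes). At an unadjusted p under 0.05, 11 members were lower (27.5%, against 9.84% of all genes), 3 of them S-phase and 8 mitotic, and 0 were higher (8.56% of all genes). Groups that did not overlap were found for 4 members, all lower in every calcipotriol tumor than in any EtOH tumor (10%, against 6.16% of all genes), and for 0 members in the other direction (6.32% of all genes). These 4 were Cdt1, Ube2c, Cdc20 and Ccnb2. Without EtOH 1, EtOH 2 or calcipotriol 7 that count became 9, 7 or 8. Groups separate more readily when a tumor is left out, and the share of all genes was not counted in those fits.

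The S-phase and mitotic members were set against each other, the contrast for which they had been divided. All 23 mitotic members had a negative log2 fold change, with a median of -0.34 and a range of -0.84 to -0.11. Of the 17 S-phase members, 13 were negative, with a median of -0.23 and a range of -0.68 to 0.36. Over all tested genes 47.9% were negative and the median was 0.02. The medians of the subsets differed by 0.11 on the log2 scale, a difference between 2 lists on which no test was made. It became 0.03 without EtOH 2, 0.07 without calcipotriol 6, 0.18 without EtOH 4 and 0.21 without calcipotriol 7.

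**Figure D1:**
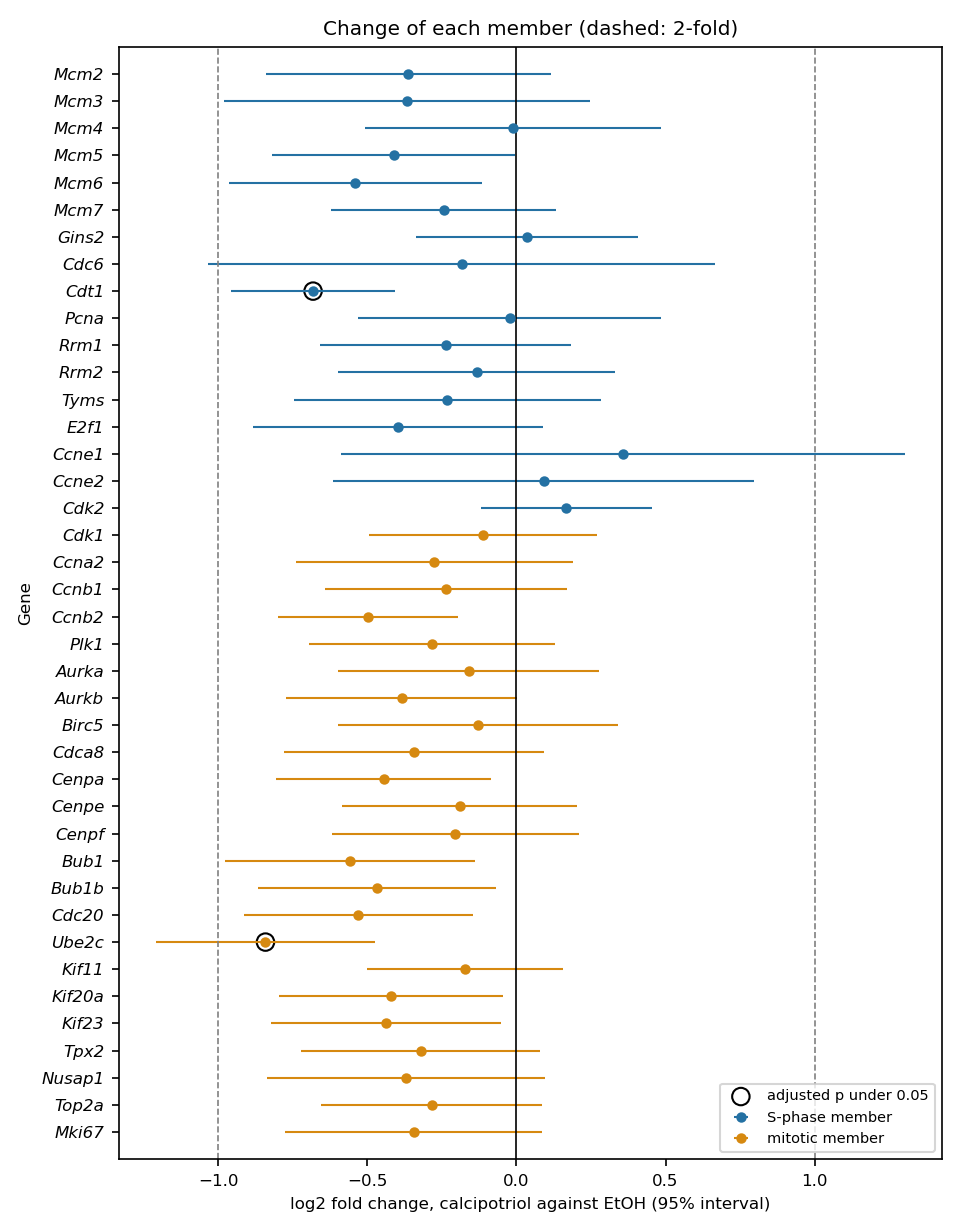
The log2 fold change of each member (calcipotriol against EtOH, horizontal axis) is plotted with its 95% interval, S-phase members in blue above and mitotic members in orange below, with circles on Cdt1 and Ube2c, whose adjusted p was under 0.05. All 23 mitotic points lie left of 0, and the intervals of 37 of the 40 members lie inside the dashed lines at a 2-fold change.

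The intervals set a limit on the size of these changes. For 37 members the 95% interval of the log2 fold change excluded a 2-fold change in either direction, and for 3 members (Cdc6, Ccne1 and Ube2c) it reached one. The interval excluded 0 for 11 members, the same 11 that had an unadjusted p under 0.05, because interval and p come from the same statistic. How many of all genes had an interval inside a 2-fold change was not counted.

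The same contrast in each tumor gave overlapping groups. The mean log2 CPM of the 17 S-phase members was 5.21, 5.22, 5.98 and 5.99 in EtOH 1 to 4, and 5.32, 5.45, 5.54 and 5.55 in calcipotriol 1, 5, 6 and 7. The whole calcipotriol range therefore lay inside the EtOH range. The mean of the 23 mitotic members was 5.64, 5.76, 6.12 and 6.12 in the EtOH tumors, and 5.28, 5.57, 5.64 and 5.79 in the calcipotriol tumors. Here EtOH 3 and 4 lay above all 4 calcipotriol tumors, EtOH 1 and 2 lay among them, and calcipotriol 1 was the lowest of the 8. The S-phase mean minus the mitotic mean was -0.43, -0.55, -0.14 and -0.13 in the EtOH tumors, and 0.04, -0.12, -0.10 and -0.24 in the calcipotriol tumors. EtOH 1 and 2 had the lowest S-phase values relative to mitotic values, and the other 6 tumors lay within -0.24 to 0.04. The pooled SD within groups was 0.323 for the S-phase mean, 0.230 for the mitotic mean and 0.168 for their difference.

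**Figure D2:**
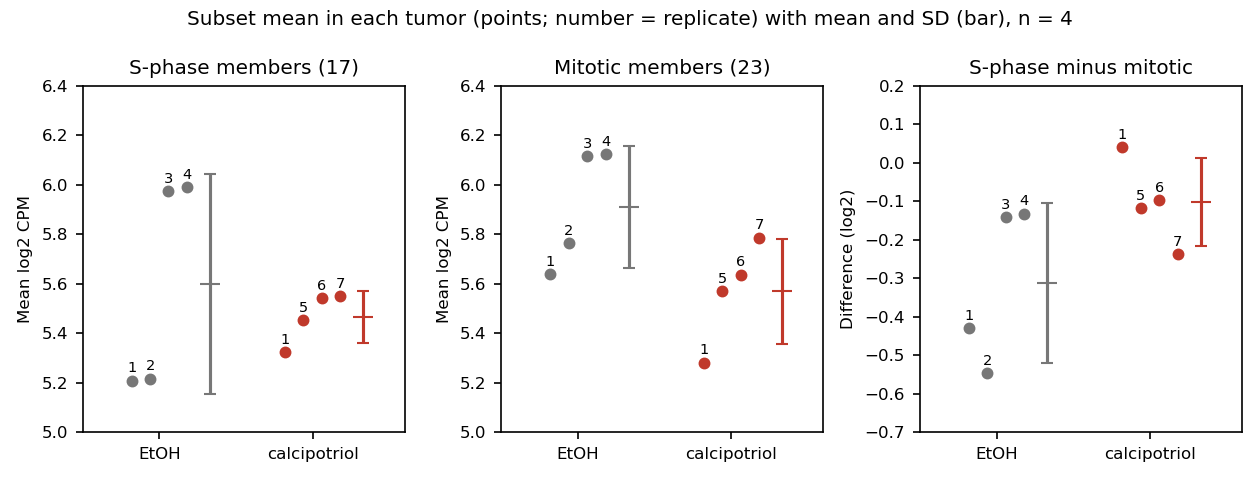
Each point is 1 tumor, numbered by replicate, and the vertical axes give the mean log2 CPM of the 17 S-phase members, that of the 23 mitotic members and the first minus the second, with the mean and SD of 4 tumors as bars. The S-phase means of calcipotriol tumors (5.32 to 5.55) lie within the EtOH range (5.21 to 5.99), and in both subsets EtOH 3 and 4 stand above EtOH 1 and 2.

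Among the EtOH-treated tumors, replicates 3 and 4 held more of these transcripts than replicates 1 and 2. EtOH 3 and 4 both exceeded EtOH 1 and 2 for 15 of 17 S-phase members and 19 of 23 mitotic members, an ordering seen in 29.3% of all genes. The highest of the 8 values was in EtOH 3 for 6 S-phase and 9 mitotic members, and in EtOH 4 for 9 S-phase and 12 mitotic members. The lowest value was in calcipotriol 1 for 20 of the 23 mitotic members but for 5 of the 17 S-phase members, of which 4 were lowest in EtOH 1 and 6 in EtOH 2. Together the 40 members took 0.229%, 0.237%, 0.347% and 0.347% of counts in EtOH 1 to 4, and 0.209%, 0.238%, 0.263% and 0.289% in calcipotriol 1, 5, 6 and 7. No label of the EtOH tumors separates 1 and 2 from 3 and 4.

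**Figure D3:**
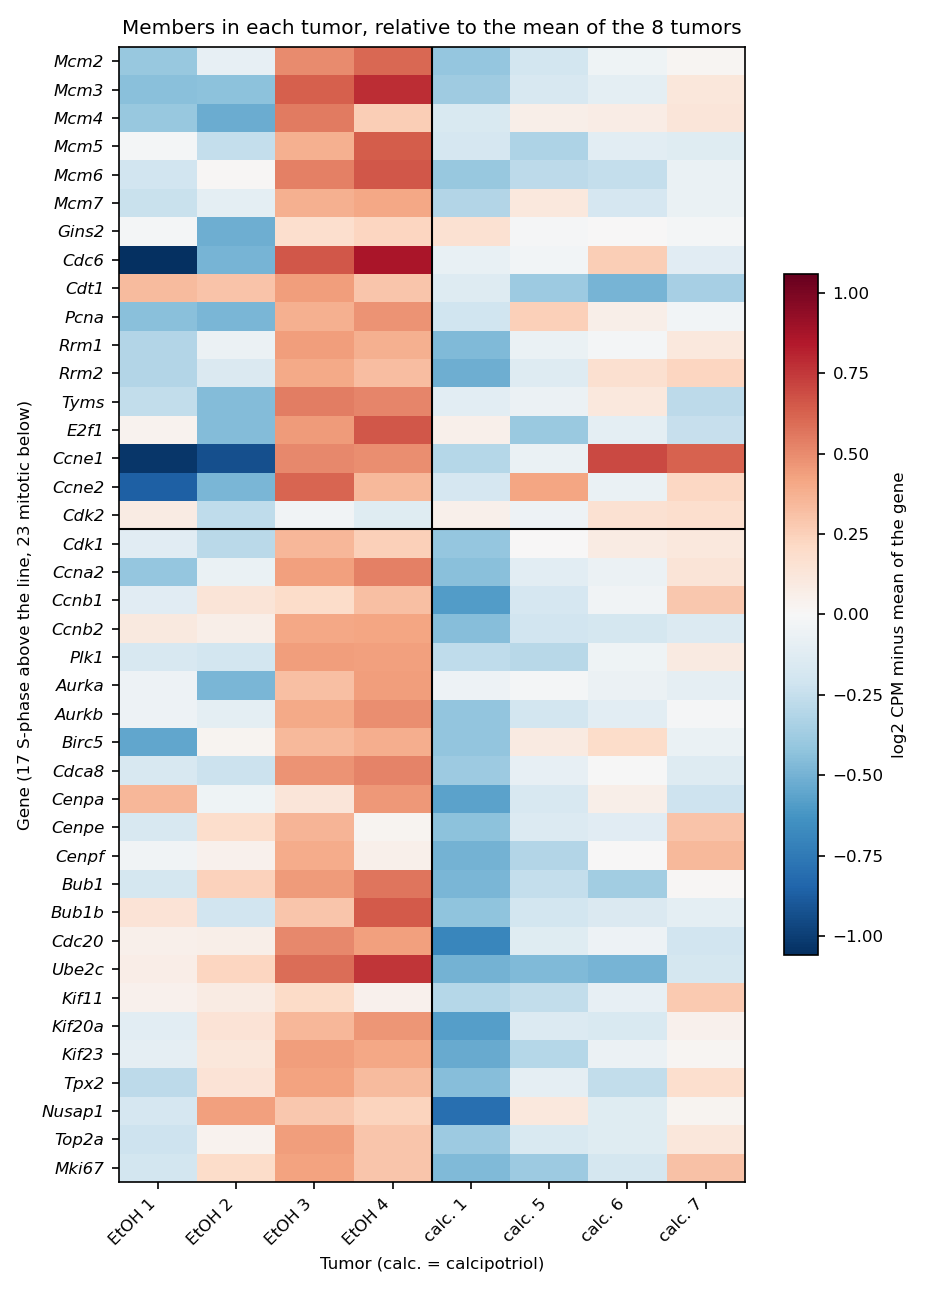
Colors give log2 CPM of each member (rows, S-phase above the line and mitotic below) in each of the 8 tumors (columns) minus the gene's mean over the tumors. EtOH 3 and 4 are red for nearly all members, EtOH 1 and 2 are blue for most S-phase members and mixed for the mitotic members, and calcipotriol 1 is blue for almost all mitotic members.

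Origin licensing loads the MCM helicase onto DNA, and its 9 members had a median log2 fold change of -0.36, with 8 negative. Cdt1, the licensing factor that brings the helicase to the origin (ENSMUSG00000006585, GRCm38 chr8:122568015-122573554, plus strand), stood at 50.004, 48.8, 53.9 and 48.6 CPM in EtOH 1 to 4 and at 36.0, 30.3, 28.2 and 31.0 CPM in calcipotriol 1, 5, 6 and 7. The calcipotriol tumors were all lower, and the EtOH tumors were within 1.11-fold of each other. Cdt1 fell from 50.3 ± 2.43 CPM to 31.4 ± 3.31 CPM (SD, n = 4 each), a log2 fold change of -0.68 with an SE of 0.12 and a 95% interval of -0.96 to -0.41. This is 37.7% lower, with an adjusted p of 0.021 by edgeR's quasi-likelihood test with Benjamini-Hochberg adjustment. The call was kept without EtOH 4 or calcipotriol 1 (adjusted p 0.0398 and 0.00834 in edgeR's test) and lost in the other 6 omissions: without EtOH 1, 2 or 3, or without calcipotriol 5, 6 or 7, the adjusted p was 0.0517 to 0.0838, while the log2 fold change over all 8 omissions stayed at -0.75 to -0.63.

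The helicase subunits were less uniform than Cdt1. Mcm6 was at 127, 147, 211 and 230.5 CPM in the EtOH tumors and 110.3, 120.0, 122 and 139 CPM in the calcipotriol tumors. EtOH 3 and 4 were above all others, and EtOH 1 lay among the calcipotriol tumors. Its log2 fold change was -0.54 (SE 0.19, adjusted p 0.167 by the same edgeR test with n = 4 per group). Mcm5 was at 55.6, 47.5, 73.2 and 88.1 CPM and 49.98, 45.04, 52.1 and 51.7 CPM in the same order. The calcipotriol tumors differed among themselves by 1.16-fold and the EtOH tumors by 1.86-fold, and EtOH 2 lay among the calcipotriol tumors (log2 fold change -0.41). The other subunits had log2 fold changes of -0.36 (Mcm2), -0.37 (Mcm3), -0.24 (Mcm7) and -0.01 (Mcm4), and none passed the test. Gins2, part of the GINS complex of the active helicase, was at 0.04, and Cdc6, which loads the helicase together with Cdt1, was at -0.18. Cdc6 was one of the least abundant members, with 4.18, 6.18, 13.7 and 15.9 CPM in the EtOH tumors and 8.26, 8.54, 10.4 and 8.01 CPM in the calcipotriol tumors. EtOH 1 and 2 were below, and EtOH 3 and 4 above, all 4 calcipotriol tumors.

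At the fork, the clamp and the enzymes of nucleotide supply differed little between groups, with a median log2 fold change of -0.18 over 4 members. Pcna, the sliding clamp that holds the polymerases on DNA, was the member with the highest level per length, 89.9 CPM per kb of exon in EtOH-treated and 88.5 in calcipotriol-treated tumors. Its log2 fold change was -0.02, with a 95% interval of -0.53 to 0.49. Rrm1 and Rrm2, the ribonucleotide reductase subunits, were at -0.24 and -0.13, and Tyms, which makes thymidylate, was at -0.23. None of these passed the test, and the direction of Pcna and of Mcm4 turned slightly positive with limma-voom.

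The genes of S-phase entry included the members with the largest positive differences, none of which passed the test. Ccne1, one of the E-type cyclins that start S phase with Cdk2, was at 2.63, 2.82, 7.66 and 7.59 CPM in the EtOH tumors and 4.37, 5.12, 8.75 and 8.31 CPM in the calcipotriol tumors. In each group a pair of tumors was higher than the other pair, EtOH 3 and 4 and calcipotriol 6 and 7, and the groups overlapped (log2 fold change 0.36, 95% interval -0.59 to 1.302). Ccne2, the other E-type cyclin, was at 6.23, 8.13, 17.5 and 14.4 CPM and 10.1, 15.2, 10.8 and 13.2 CPM. All 4 calcipotriol tumors lay between EtOH 2 and EtOH 3. Its log2 fold change was 0.09 and its interval was -0.61 to 0.80. Cdk2, their kinase, was at 39.4, 30.7, 36.1 and 33.8 CPM and 38.5, 35.7, 41.3 and 41.8 CPM. Cdk2 varied little, within 1.28-fold in EtOH tumors and 1.17-fold in calcipotriol tumors, and its log2 fold change was 0.17 (interval -0.12 to 0.45). E2f1, the transcription factor of this step, went the other way at -0.40, with 55.5, 39.4, 73.7 and 85.2 CPM in the EtOH tumors and 56.0, 41.0, 50.3 and 45.5 CPM in the calcipotriol tumors, which overlapped.

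**Figure D4:**
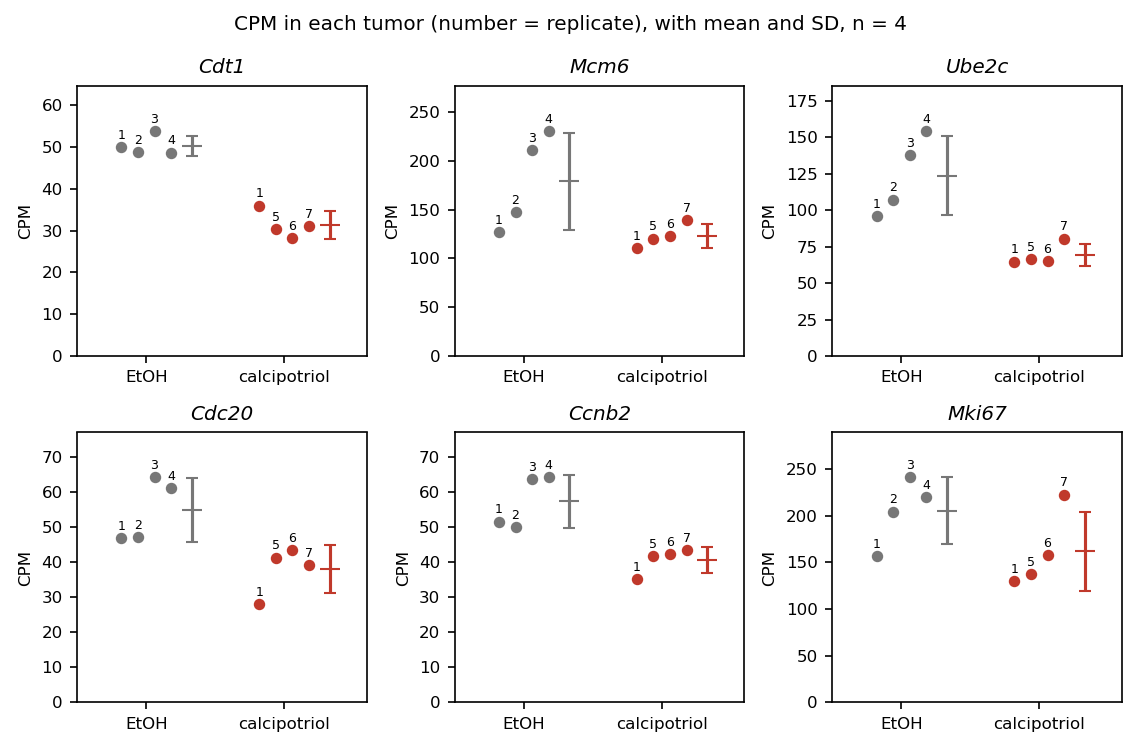
CPM (vertical axis, from 0) is shown for 6 members in each tumor, numbered by replicate, with the mean and SD of 4 tumors as bars. The groups are apart for Cdt1, Ube2c, Cdc20 and Ccnb2 and overlap for Mcm6 and Mki67.

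Of the mitotic groups, the most negative median was that of the spindle checkpoint and the anaphase-promoting complex (APC/C), the ubiquitin ligase that starts anaphase. Its 4 members, described together because of that median, had a median log2 fold change of -0.54, and all 4 were lower at an unadjusted p under 0.05 (9.84% of all genes). Ube2c, the ubiquitin-conjugating enzyme of APC/C (ENSMUSG00000001403, GRCm38 chr2:164769898-164778822, plus strand), stood at 95.9, 107, 138 and 154 CPM in EtOH 1 to 4 and at 64.8, 66.3, 64.9 and 80.5 CPM in calcipotriol 1, 5, 6 and 7. No calcipotriol tumor reached the lowest EtOH tumor, and calcipotriol 7 was set above the other 3, which were nearly equal. Ube2c fell from 124 ± 27.0 CPM to 69.1 ± 7.59 CPM (SD, n = 4 each), or by 44.2%, the largest difference among the 40 members. Its log2 fold change was -0.84 (SE 0.17, 95% interval -1.21 to -0.48, adjusted p 0.0279 by edgeR's quasi-likelihood test with Benjamini-Hochberg adjustment). As for Cdt1, the call was kept in 2 of 8 omissions (EtOH 1 and calcipotriol 1) and lost in the others: without EtOH 2, 3 or 4, or without calcipotriol 5, 6 or 7, the adjusted p was 0.0515 to 0.0992, with log2 fold changes of -0.94 to -0.72 over all 8 omissions.

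Cdc20, the activator of APC/C held in check until chromosomes are attached, was at 46.8, 47.1, 64.1 and 61.0 CPM in the EtOH tumors and 27.9, 41.2, 43.4 and 39.2 CPM in the calcipotriol tumors. Every calcipotriol tumor was lower, with calcipotriol 1 the lowest, but the adjusted p was 0.137 in edgeR's test (log2 fold change -0.53). Bub1, a kinase of the spindle checkpoint, was at 21.8, 29.4, 34.0 and 36.8 CPM and 17.7, 20.9, 19.2 and 25.1 CPM. The groups overlapped at EtOH 1, which was below calcipotriol 7 (log2 fold change -0.56, adjusted p 0.149 in edgeR's test). Bub1b, which encodes the checkpoint protein BubR1, had a log2 fold change of -0.47.

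Mitotic cyclins and kinases had a median log2 fold change of -0.26 over 6 members, all negative. Ccnb2, one of the B-type cyclins that activate Cdk1, is given in full because its groups did not overlap, a choice made after its values were seen. It was at 51.6, 50.1, 63.7 and 64.2 CPM in the EtOH tumors and 35.1, 41.7, 42.3 and 43.4 CPM in the calcipotriol tumors, and EtOH 3 and 4 were again highest. Its log2 fold change was -0.50 (SE 0.14), and its adjusted p was 0.0822 in edgeR's test and 0.0243 in DESeq2's. Cdk1, the kinase that drives entry into mitosis, differed least of the mitotic members. Cdk1 was at 82.8, 73.7, 115 and 107 CPM in the EtOH tumors and 67.7, 89.9, 95.3 and 97.1 CPM in the calcipotriol tumors (log2 fold change -0.11, 95% interval -0.50 to 0.27). Calcipotriol 5, 6 and 7 lay between EtOH 1 and EtOH 4, and calcipotriol 1 was the lowest. Aurka, the kinase of the spindle poles, was at 20.7, 15.4, 26.8 and 29.2 CPM and 20.6, 21.2, 20.5 and 20.1 CPM. The 4 calcipotriol tumors were within 1.05-fold of each other and lay inside the EtOH range (log2 fold change -0.16). The other 3 members of the group were at -0.28 (Ccna2, the A-type cyclin), -0.24 (Ccnb1) and -0.28 (Plk1, a kinase of spindle and cytokinesis).

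In the chromosomal passenger complex and at the centromere, 6 of 6 members were negative and none passed the test (median -0.27). Birc5 (survivin), a subunit of the passenger complex, was at 34.0, 51.0, 63.5 and 65.3 CPM in the EtOH tumors and 37.3, 53.4, 57.2 and 47.6 CPM in the calcipotriol tumors. Here the lowest of all was EtOH 1, and the groups overlapped (log2 fold change -0.13). Its partners Aurkb, the kinase, and Cdca8 (borealin) were at -0.38 and -0.34. Cenpa, the histone H3 variant that marks centromeres, was at -0.45, and the large kinetochore proteins Cenpe and Cenpf were at -0.19 and -0.20.

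The genes of spindle motors, spindle assembly and cytokinesis had a median of -0.37, with 5 of 5 negative and none past the test. Kif23 and Kif20a, kinesins of the central spindle and the cleavage furrow, were at -0.44 and -0.42. Nusap1 and Tpx2, which organize spindle microtubules, were at -0.37 and -0.32, and Kif11, the motor that separates the spindle poles, was at -0.17. Mki67, the antigen of cycling cells, was at 157, 204, 241 and 219.7 CPM in the EtOH tumors and 129.9, 137, 158 and 223 CPM in the calcipotriol tumors. Calcipotriol 7 exceeded 3 of the 4 EtOH tumors, while calcipotriol 1 and 5 were below all of them. Mki67 had a log2 fold change of -0.34 with a 95% interval of -0.78 to 0.09 and an adjusted p of 0.380 in edgeR's test. Top2a, the topoisomerase that untangles sister chromatids, was at -0.28.

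Per kb of exon, the members spanned levels from 1.91 (Cdc6) to 89.9 CPM (Pcna) in EtOH-treated tumors. After Pcna came Ube2c (47.6 CPM per kb), Mcm6 (38.3), Ccnb2 (37.5) and Top2a (33.6). In calcipotriol-treated tumors Top2a (27.6 CPM per kb), Ube2c (26.6), Ccnb2 (26.5) and Mcm6 (26.4) were nearly equal, and Pcna stayed far above them at 88.5. The length used joins all annotated exons of a gene over its transcripts, so the order of genes depends on the annotation.

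The spread between tumors was taken for each subset. The SD of log2 CPM was larger among EtOH tumors than among calcipotriol tumors for 16 of 17 S-phase members (94.1%), 14 of 23 mitotic members (60.9%) and 58.6% of all genes. For the S-phase members the median SD was 0.480 among EtOH and 0.176 among calcipotriol tumors, for the mitotic members 0.289 and 0.250, and for all genes 0.323 and 0.280. Cdc6 was the extreme, with a 3.80-fold range among EtOH tumors and a 1.302-fold range among calcipotriol tumors. Cdt1 was the S-phase exception, with the smallest EtOH spread of all members (SD 0.068) and an SD of 0.148 among calcipotriol tumors. Each SD rests on 4 tumors, and all members share the same 4, so these counts are a description.

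**Figure D5:**
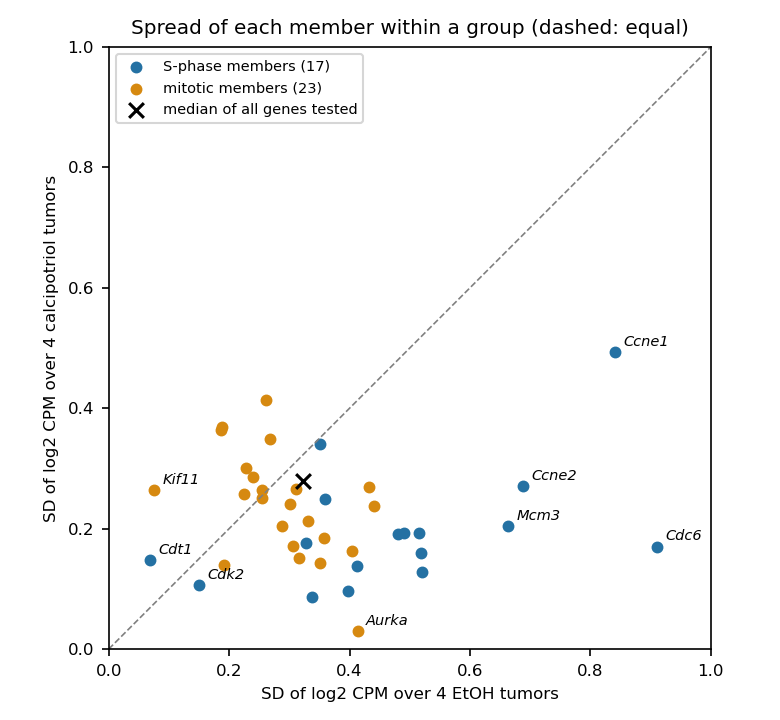
Each point is a member, with the SD of its log2 CPM over the 4 EtOH tumors on the horizontal axis and over the 4 calcipotriol tumors on the vertical axis, and the dashed line marks equal SDs. All S-phase points except Cdt1 lie below the line, 14 of 23 mitotic points do so, and the cross marks the median of all genes (0.323 and 0.280).

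Other genes of the same pathways were counted in the same way. DESeq2's test, given beside edgeR's, called more of all genes, with 324 higher and 320 lower past both thresholds against 155 and 137 with edgeR. Its share of all genes at the adjusted p alone was not counted. Of 61 further replication genes, 38 were negative (median log2 fold change -0.10), 6 were lower and 0 higher at an unadjusted p under 0.05 (a share of lower calls close to the 9.84% of all genes), and 0 passed the adjusted p with edgeR (with DESeq2's test, 1 did, Dnmt1). The lowest were Pold2, a subunit of DNA polymerase delta (-0.53), and Dnmt1, the maintenance DNA methyltransferase (-0.53), and the highest were Cdc7, the kinase that fires origins (0.47), and Hells, a chromatin remodeler (0.36). Of 82 further mitosis genes, 69 were negative (median -0.22), 11 were lower and 1 higher at an unadjusted p under 0.05 (all genes, 9.84% and 8.56%), and 0 passed the adjusted p with edgeR (with DESeq2's test, 3 did, Dlgap5, Lmnb1 and Racgap1, all lower). The lowest were Lmnb1, which encodes lamin B1 (-0.76), and Cenpp, a centromere protein (-0.72). The highest were Psrc1, a spindle protein (0.56), and Pttg1, which encodes securin, the inhibitor of separase (0.46). Pttg1 was at 16.7, 11.0, 15.4 and 19.8 CPM in the EtOH tumors and 20.6, 24.1, 20.9 and 21.1 CPM in the calcipotriol tumors, so that its groups did not overlap, in the opposite direction to Ube2c and Cdc20 (adjusted p 0.229 in edgeR's test). Of the 82 mitosis genes, Pttg1 was the only 1 with groups apart in the higher direction (6.32% of all genes). In the lower direction 9 had groups apart (6.16% of all genes), Lmnb1 and Cenpp among them.

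The transcription factors that control the members did not share 1 direction. Of 18 tested, 12 were negative (median -0.07), 2 were lower and 1 higher at an unadjusted p under 0.05 (shares close to the 9.84% and 8.56% of all genes), and 0 passed the adjusted p with edgeR (1 with DESeq2's test). E2f7, a repressor of E2F targets that is itself made in S phase, was the lowest, at 16.6, 16.6, 24.4 and 18.7 CPM in the EtOH tumors and 8.82, 6.99, 10.9 and 13.7 CPM in the calcipotriol tumors. Its groups did not overlap (log2 fold change -0.92), with an adjusted p of 0.0678 in edgeR's test and 0.0105 in DESeq2's. Foxm1 was next, at 58.2, 57.5, 60.3 and 57.8 CPM and 38.1, 32.7, 44.9 and 55.3 CPM. It was nearly equal in the 4 EtOH tumors, including the pair in which the mitotic members were higher, and lower in every calcipotriol tumor (log2 fold change -0.45, adjusted p 0.167 in edgeR's test). The highest were Lin52, a MuvB subunit (0.35), and E2f3, an activating E2F (0.35). E2f3 was at 17.9, 19.0, 14.8 and 16.5 CPM in the EtOH tumors and 22.8, 22.2, 19.2 and 22.6 CPM in the calcipotriol tumors, higher in every calcipotriol tumor than in any EtOH tumor (adjusted p 0.246 in edgeR's test).

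Markers of other cell types moved with the groups in the same libraries. All 7 tested erythroid markers were lower, 5 past the adjusted p, with a summed level of 3460 to 5838 CPM in EtOH and 436 to 821 CPM in calcipotriol tumors. The sums were 5599 and 5838 CPM in EtOH 1 and 2 and 3511 and 3460 CPM in EtOH 3 and 4, the order opposite to that of the members. Endothelial sums (398 and 418 CPM, then 188 and 192 CPM), neutrophil, epithelial and T cell sums were also higher in EtOH 1 and 2. The epithelial sum was almost wholly Krt8 and Krt18, and other epithelial markers had the order of the members. Cdh1 was at 5.93 and 5.01 CPM, then 16.2 and 15.3 CPM, and Epcam at 0 and 0 CPM, then 4.29 and 2.87 CPM. Krt7, Krt19, Cldn4 and Elf3 were also higher in EtOH 3 and 4, whereas Cldn3 was mixed. Macrophage and skeletal muscle sums had the order of the members. All 10 endothelial markers were lower, 6 past the adjusted p, with sums of 188 to 418 CPM against 76.4 to 135 CPM, and all 10 macrophage markers were lower, 2 past it, with sums of 2319 to 2848 CPM against 1071 to 2073 CPM. By protein staining, in mice also given control IgG, the paper reports more macrophages after calcipotriol. Adgre1, the gene of the stained marker, was at -1.24 here (adjusted p 0.0325 in edgeR's test). Epithelial sums were 1014 to 1322 CPM against 602 to 902 CPM, with positive log2 fold changes for 7 of 9 tested markers and negative ones for Krt8 and Krt18. Past the adjusted p, 1 was higher (Cldn3, log2 fold change 3.93, adjusted p 0.00654 in edgeR's test) and 1 lower (Krt18, -0.93, adjusted p 0.0162). Skeletal muscle sums were 1.22 and 1.61 CPM in EtOH 1 and 2, 42.3 and 45.6 CPM in EtOH 3 and 4, and 1.07 to 6.49 CPM in calcipotriol tumors. Sums of fibroblast markers (4836 to 5392 CPM against 3585 to 6380 CPM), neutrophil markers (31.4 to 107 CPM against 40.4 to 154 CPM), keratinocyte markers (11.8 to 14.9 CPM against 5.72 to 63.9 CPM) and T cell markers (1.59 to 3.79 CPM against 3.48 to 15.9 CPM) overlapped between groups, and those of B cells (1.17 to 2.69 CPM against 0.397 to 1.14 CPM) were near the floor. T cell sums were low as well, with 5 of 10 markers abundant enough to be tested. Their 15.9 CPM was in calcipotriol 1, and calcipotriol 5, 6 and 7 had 3.48 to 6.21 CPM. Among the keratinocyte markers, 1 passed the adjusted p, Krt14, which was higher (log2 fold change 5.17, adjusted p 0.0336 in edgeR's test). Of all these lists 0 markers were at 0 in every tumor. The part of these cells in the members' differences was not tested.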

How the data were processed

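RNA from 8 PyMt mammary tumors was sequenced, 4 from EtOH-treated and 4 from calcipotriol-treated mice. The values deposited by the authors are estimated counts (expected counts) per gene and tumor, not scaled to each other. The submitters' processing notes name STAR 2.5.3, RSEM 1.3.1, DESeq2 1.24.0 and GRCm38; the annotation is not given in the sources used here, and the paper names limma for its own comparison. The table held 0 columns of other samples. Groups came from the labels of treatment, and dosing from the paper's methods.

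Rounding to whole counts was the only departure from the planned count test; 4.2% to 6.22% of values per tumor were not whole. Identifiers were matched to GENCODE M21 symbols (52081 of 55414 matched). Groups were compared over all genes in R 4.3.3 by edgeR 4.0.16: genes were filtered by filterByExpr, libraries scaled by TMM, and p-values from glmQLFTest on a glmQLFit model were adjusted by Benjamini-Hochberg. Thresholds were an adjusted p of 0.05 and, where stated, an absolute log2 fold change of 1. CPM used TMM library sizes, and log2 CPM a prior count of 2. P-values set the difference between groups against the spread between these tumors, which is estimated with information shared across genes. The procedure was tested on simulated data with changes larger than that of any member. Such a test does not show how well changes of the members' size are found. At these depths 3 counts correspond to at most 0.152 CPM, and such floors cover counting error only.

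The members, gene lists and marker lists were chosen with earlier results of these data known. Tumor values are given for members with an adjusted p under 0.05, the 3 highest and 3 lowest log2 fold changes of each subset and Mki67; Ccnb2, Cdc6, E2f1 and, in the wider lists, Pttg1, E2f3, E2f7 and Foxm1 were added after their values were seen. Of the wider lists, the 2 highest and 2 lowest log2 fold changes were named. Alternatives were DESeq2 size factors, no filter, 10 or more counts required throughout, the test of DESeq2 1.42.0 and limma-voom (limma 3.58.1). Erythroid, muscle and macrophage genes were also removed from library sizes, and each tumor was left out in turn. In a further alternative, members of several phases and all S-phase entry genes were set aside together. Promoters came from RefSeq; 7 members were without an entry.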

Additional observations from a re-analysis of the deposited data

Results flagged for a closer look

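For 2 members, 1 tumor stood apart from the other 3 of its group by Dixon's criterion, which sets the gap to the nearest tumor against the whole range of the group. Ube2c was at 80.5 CPM in calcipotriol 7, against 64.8 to 66.3 CPM in calcipotriol 1, 5 and 6. Gins2 was at 41.4 CPM in calcipotriol 1, against 36.5 to 37.1 CPM in calcipotriol 5, 6 and 7. Over the 106 groups of 4 values examined, chance alone would single out about 5% (5.3), more than the 2 seen.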

How the results depend on the processing

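All 23 mitotic members had negative log2 fold changes in every fit run, and 0 members passed both thresholds in any. In the 8 fits without 1 tumor, the subset medians were -0.35 to -0.07 (S-phase) and -0.44 to -0.24 (mitotic), 10 to 15 S-phase members were negative, and 0 to 2 members had an adjusted p under 0.05 in the lower direction: 0 without EtOH replicates 2 or 3 or calcipotriol replicates 5, 6 or 7, and 1 without EtOH replicates 1 or 4. Members with groups that did not overlap numbered 4 to 9, with no share of all genes counted beside them. Over all genes past both thresholds, 155 higher and 137 lower became 68 to 241 and 41 to 401 in these fits, 247 and 211 without a filter, and 324 and 320 with DESeq2's test. Without a filter the median log2 fold change of all genes was 0.11 in place of 0.02. Cdt1 and Ube2c kept an adjusted p under 0.05 in the other alternatives, and DESeq2's test added Ccnb2 and, in the wider lists, 5 genes in place of 0: 1 replication gene (Dnmt1, adjusted p 0.0192), 3 mitosis genes (Dlgap5, 0.0129; Lmnb1, 0.0244; Racgap1, 0.0433) and 1 transcription factor (E2f7, 0.0105). Of those lists, 0 to 1 genes passed in the fits without 1 tumor (Dnmt1, 0.0340, without calcipotriol replicate 1). The share of all genes at the adjusted p alone was not counted for DESeq2's test. Members near 0 changed sign: with limma-voom Mcm4 was at 0.048 and Pcna at 0.041, and over the fits without 1 tumor Mcm4 ran from -0.16 to 0.21, Pcna from -0.16 to 0.15, Cdc6 from -0.44 to 0.13, Gins2 from -0.10 to 0.12 and Ccne2 from -0.11 to 0.36. The cause was not tested. Setting aside members of several phases (Mki67, Top2a, Ccna2) and all S-phase entry genes (E2f1, Ccne1, Ccne2, Cdk2) gave medians of -0.24 (S-phase) and -0.36 (mitotic). The S-phase entry genes held 3 of the 4 S-phase members with a positive log2 fold change. No paired analysis was made: the groups shared replicate number 1 only, and no label says that tumors of the same number are paired. Each member had at least 54 counts in every tumor; the 95% intervals given with the values show the precision that 4 tumors a group allow.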
